A study of Mus musculus with 76 samples.

Results

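RNA of 10 genes of neutrophil granules and of the C/EBP factors that act in neutrophil development was followed through a mouse study in which B cell precursors were turned into T lineage cells by Hoxb5. The genes were chosen by name, and all 10 were found among the 37980 genes of the expression table. They are Mpo, Elane, Prtn3, Ctsg, Ms4a3, Cebpa, Cebpe, Lyz2, Ltf and Camp. The choice named the primary granule RNA of natural marrow early T progenitors, so the levels of Mpo, Elane, Prtn3 and Ctsg in that group are given as a description, with no test.

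The study held 76 libraries of 1000 sorted cells each, of C57BL/6 mice, in 24 groups of 2 to 4 libraries. In the 9 induced groups, pro/pre-B cells sorted from marrow were transduced with Hoxb5 virus in culture, sorted again and transplanted into recipients given sublethal irradiation, which leaves host blood-forming cells in place. The induced cells were then sorted from the recipients at 9 stages: early T lineage progenitors (ETP) of bone marrow (BM) and of thymus, thymocytes without CD4 and CD8 (double negative, DN1, DN2, DN3 and DN4), thymocytes with both (double positive, DP) and those with CD4 or CD8 alone (single positive, SP). The 15 natural groups were the same 9 stages, hematopoietic stem cells (HSC), multipotent progenitors (MPP), mature myeloid, B and T cells, and pro/pre-B cells, the starting cells of the induction. Ages are not given, and neither is the source of the libraries of a group in separate animals. The p-values here therefore measure only spread between libraries, pooled over all groups. Replicate 3 of the pro/pre-B group was a copy of replicate 1 and was left out, which left 75 libraries.

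Neutrophils load their granules in waves as they mature. Primary granules form first, at the promyelocyte stage, and hold myeloperoxidase and serine proteases, while secondary and tertiary granules form later and hold lactoferrin and cathelicidin. C/EBPα is needed for commitment to the granulocyte and monocyte lineages, and C/EBPε for the later, secondary granule program. Primary granule genes are switched off before the cell is mature, so the balance of both waves marks its stage.

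Levels are in FPKM, fragments normalized to transcript length and to sequencing depth, so genes can be compared per length. Total FPKM per library ran between 667660 and 2004010, and 9828 to 12202 genes reached 1 FPKM. Depth was read from the steps between low values: 1 fragment was worth a median of 0.0864 FPKM for Mpo, 0.181 FPKM for Lyz2 and 0.314 FPKM for Camp. A gene listed at 0 was below about 1 fragment, and 10 housekeeping genes were above 0 in every library. The mature myeloid libraries were the shallowest. Tests used limma on log2(FPKM + 1) over 17416 genes, those that reached 1 FPKM in 2 or more libraries, all 10 members among them, with p adjusted by the Benjamini-Hochberg method over all of these and a threshold of 0.05. No fold is given against a group listed at 0. The log2 difference of Lyz2 at CD8 SP, given among the flagged results, rests on the 1 added to FPKM. The fit shares 1 estimate of spread per gene over all 24 groups. Apart from Cebpa (8 groups) and Lyz2 (4 groups), the members were at 0 in every library of 14 to 19 groups. Those groups add no spread to the estimate. The standard errors and p-values of the members therefore do not measure the spread of the 2 compared groups alone.

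**Figure D1:**
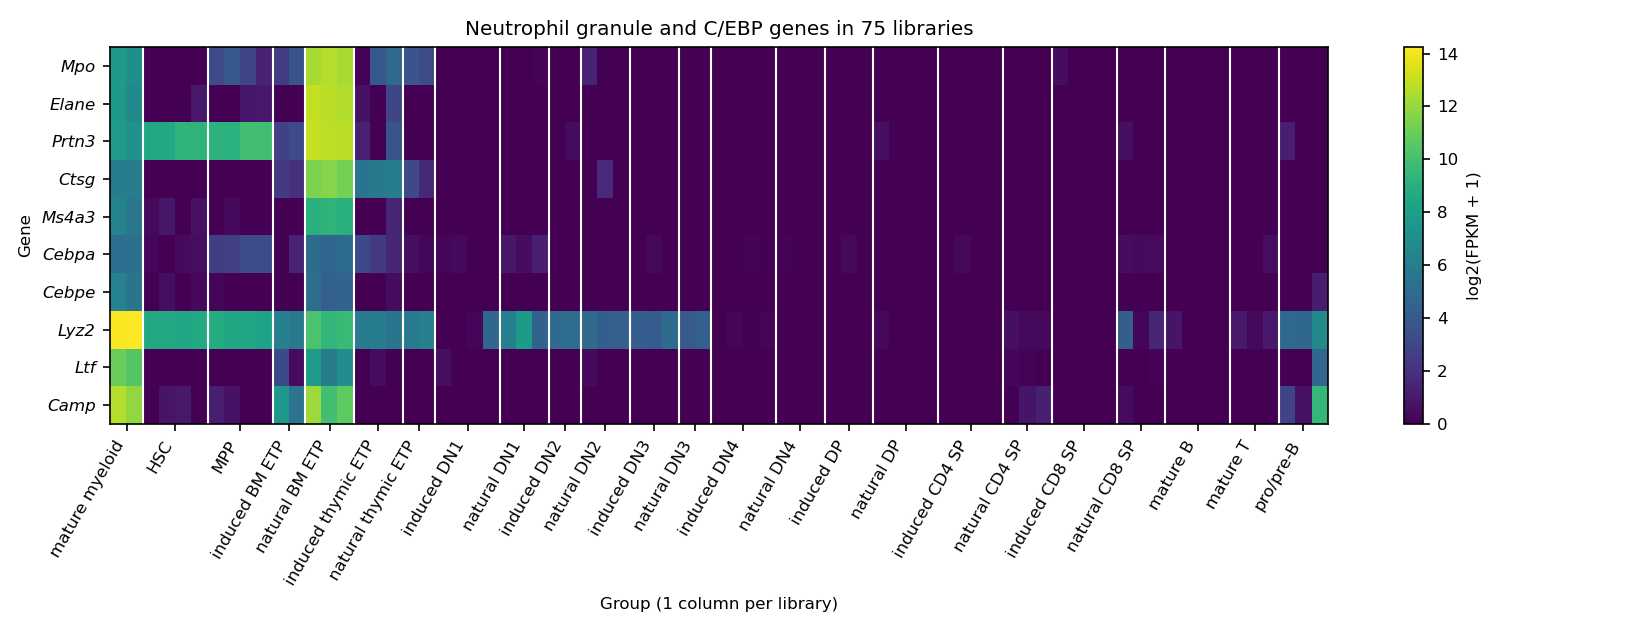
Heat map of log2(FPKM + 1) for the 10 genes (rows) in 75 libraries (columns, grouped by cell type, with each induced group left of its natural group). All 10 genes reached 1 FPKM in each natural BM ETP and mature myeloid library, while from iDN4 and DN4 to iCD4 SP the panel is close to dark.

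Across the 75 libraries, all 10 genes reached 1 FPKM together only in natural BM ETP and mature myeloid cells. Induced BM ETP libraries held 6 of them at that level, induced thymic ETP 4 to 7, natural thymic ETP 3, MPP 4 to 5, HSC 2 and pro/pre-B cells 1 to 4. No member reached 1 FPKM in any library of induced or natural DN4 or DP, of induced CD4 SP or CD8 SP, or of mature B or T cells. In bulk libraries, fewer cells of a type and less RNA per cell cannot be told apart.

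Mpo (ENSMUSG00000009350) encodes myeloperoxidase, which makes hypochlorous acid, and Elane (ENSMUSG00000020125), Prtn3 (ENSMUSG00000057729) and Ctsg (ENSMUSG00000040314) encode the serine proteases neutrophil elastase, proteinase 3 and cathepsin G. In the natural series the 4 genes did not move together: Prtn3 was already high in HSC, Mpo appeared in MPP, and Elane and Ctsg reached 1 FPKM in BM ETP but not before. Prtn3 was 364, 380, 646 and 606 FPKM in the HSC libraries, 570, 550, 983 and 982 FPKM in the MPP libraries, and 8250, 7368 and 6922 FPKM in natural BM ETP. Mpo was listed at 0 in all 4 HSC libraries, at 8.52, 15.6, 6.85 and 1.57 FPKM in MPP, and at 5265, 6443 and 5291 FPKM in natural BM ETP. Mpo therefore separated MPP from HSC without overlap, whereas Prtn3 overlapped between them. Within every replicate number Prtn3 was higher in MPP than in HSC, but the labels do not say that the numbers pair libraries.

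Elane was listed at 0 in 3 HSC libraries and at 0.961 FPKM in the other, at 0, 0, 0.891 and 0.963 FPKM in MPP, and at 7935, 6972 and 6208 FPKM in natural BM ETP. Ctsg was at 0 in all 8 HSC and MPP libraries and at 2734, 3200 and 2482 FPKM in natural BM ETP. Prtn3 made up 97.2% or more of the summed FPKM of the 4 genes in every HSC and MPP library, against 30.7% to 34.1% in natural BM ETP, where Mpo, Elane, Prtn3 and Ctsg averaged 5666, 7038, 7513 and 2805 FPKM. Prtn3 was higher in replicates 3 and 4 of both HSC and MPP than in replicates 1 and 2. The labels name no batch for these numbers, and their part in the result was not tested.

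Of the 10 genes, 2 rose in MPP against HSC, where 8.13% of all genes were called and 3.12% were called higher. They were Mpo, with an adjusted p of 2.68e-07 in limma, and Cebpa, with a log2 fold change of 2.70 ± 0.20 (SE) and an adjusted p of 1.14e-16. Prtn3 averaged 771 ± 244 FPKM in MPP and 499 ± 148 FPKM in HSC (SD, n = 4 each), a log2 difference of 0.62 ± 0.32 that did not pass (adjusted p 0.356 in limma). Of 6 genes listed as companions of the primary granule genes, 2 rose in MPP and 4 were not called. Serpinb1a, an inhibitor of neutrophil serine proteases, averaged 117 FPKM in MPP and 19.8 FPKM in HSC. Prss57, another neutrophil serine protease, averaged 22.9 FPKM in MPP and 5.20 FPKM in HSC. The Prss57 call was lost with a pseudocount of 0.1 (adjusted p 0.189 in limma). The median log2 difference of those 6 genes was 0.64, against 0.00 over all genes.

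**Figure D2:**
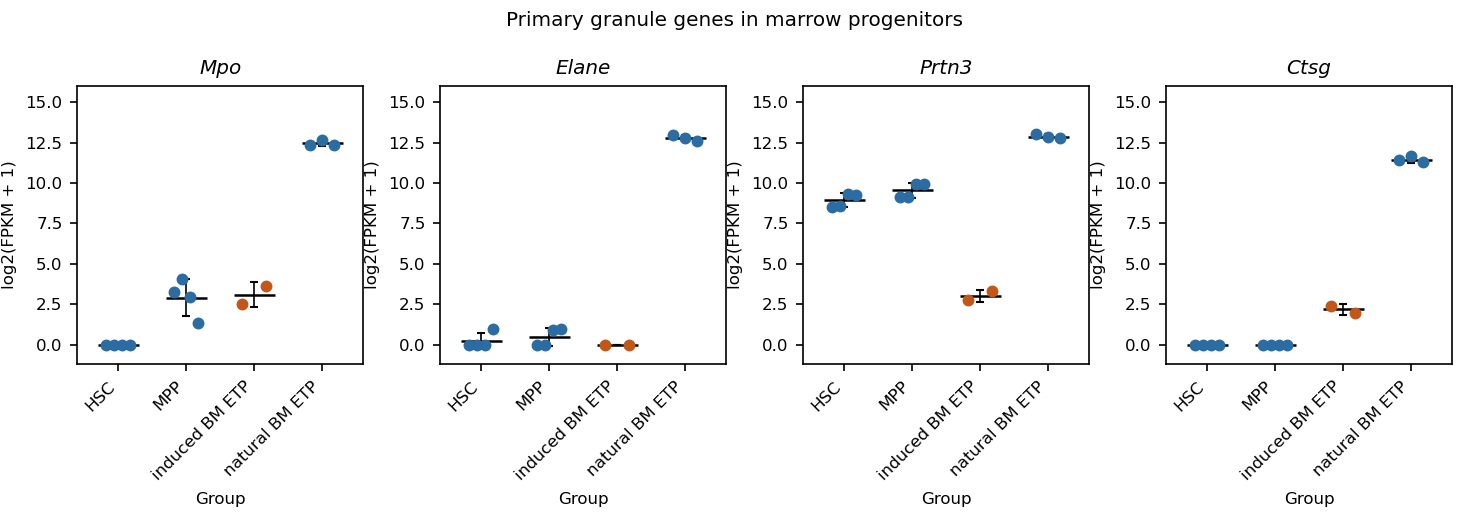
Mpo, Elane, Prtn3 and Ctsg in HSC, MPP, induced BM ETP (orange) and natural BM ETP (blue, as HSC and MPP), as log2(FPKM + 1); points are libraries, the line is the mean and the bar 1 SD. Natural BM ETP stands highest in each panel, Prtn3 alone is high in HSC and MPP, and Elane is at 0 in both induced libraries.

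The upstream sequences of these 4 genes are shown because all 4 were at 2482 FPKM or more in natural BM ETP and yet Prtn3 alone was high in the 2 earlier stages. They are the 250 bases before the annotated start, from RefSeq on GRCm38.p6, a later build than that of the expression values; capitals mark GAGGAA or its complement TTCCTC, a core bound by the myeloid factor PU.1. They lie at chr11:87793534-87793783 on the plus strand for Mpo, chr10:79886062-79886311 on the plus strand for Elane, chr10:79879417-79879666 on the plus strand for Prtn3 and chr14:56102575-56102824 on the minus strand for Ctsg.
Mpo: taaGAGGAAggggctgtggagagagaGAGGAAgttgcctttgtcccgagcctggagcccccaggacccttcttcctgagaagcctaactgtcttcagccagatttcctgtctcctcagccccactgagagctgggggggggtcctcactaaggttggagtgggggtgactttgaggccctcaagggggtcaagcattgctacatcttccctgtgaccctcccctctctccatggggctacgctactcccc
Elane: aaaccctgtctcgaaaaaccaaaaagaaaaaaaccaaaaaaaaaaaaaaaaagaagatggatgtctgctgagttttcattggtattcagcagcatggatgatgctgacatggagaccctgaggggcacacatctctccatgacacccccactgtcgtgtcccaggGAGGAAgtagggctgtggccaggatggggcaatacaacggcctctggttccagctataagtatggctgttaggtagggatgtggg
Prtn3: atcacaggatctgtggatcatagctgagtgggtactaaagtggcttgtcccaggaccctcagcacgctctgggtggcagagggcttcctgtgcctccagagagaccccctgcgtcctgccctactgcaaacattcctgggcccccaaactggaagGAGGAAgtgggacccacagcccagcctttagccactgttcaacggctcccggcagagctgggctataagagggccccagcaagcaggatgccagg
Ctsg: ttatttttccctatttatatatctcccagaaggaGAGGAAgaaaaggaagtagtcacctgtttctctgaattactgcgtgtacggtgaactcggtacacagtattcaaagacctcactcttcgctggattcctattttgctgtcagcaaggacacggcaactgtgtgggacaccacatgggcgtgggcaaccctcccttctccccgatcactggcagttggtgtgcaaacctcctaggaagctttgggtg

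The core was found at positions -247 and -224 of Mpo, -85 of Elane, -95 of Prtn3 and -216 of Ctsg, counted from the start site. With the 50 bases after the start included, 6 of the 9 members in the promoter table held it, as did 28.3% of 32851 promoters of that length. Elane and Prtn3, neighbours on chromosome 10, have it about as far from the start as each other. On both strands searched, TAACNG, a MYB core, matched once in Mpo and once in Elane, and in 23.3% of all promoters, and TGTGGT, a RUNX core, in Ctsg, Lyz2 and Ltf and in 16.8%. A match of letters is a description and not a bound site, and the matches of the motifs searched did not overlap each other in these 4 sequences.

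The C/EBP factors appeared in order. Cebpa (ENSMUSG00000034957) was listed between 0 and 0.448 FPKM in HSC, at 5.36, 5.40, 8.71 and 8.46 FPKM in MPP, and at 32.0, 24.1 and 32.0 FPKM in natural BM ETP. The 3 stages did not overlap. Cebpe (ENSMUSG00000052435) stayed at or below 0.467 FPKM in HSC and 0.212 FPKM in MPP and was 33.5, 19.6 and 21.0 FPKM in natural BM ETP. Cebpa thus stood above 5 FPKM at a stage where Cebpe had not reached 1 FPKM.

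Against MPP, natural BM ETP was higher in 5 of the 6 members open to a test, with 27.8% of all genes called and 12.6% called higher. Cebpa rose by 1.95 ± 0.22 on the log2 scale (adjusted p 1.18e-10 in limma) and Cebpe by 4.57 ± 0.16 (adjusted p 1.68e-31). Ms4a3 (ENSMUSG00000024681), a membrane protein of granulocyte and monocyte progenitors, was 520, 621 and 522 FPKM in natural BM ETP, and in MPP it was at 0 in 3 libraries and 0.271 FPKM in the other. Ms4a3 rose by 9.03 ± 0.18 on the log2 scale (adjusted p 8.25e-44).

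Later granule products rose too. Ltf (ENSMUSG00000032496), which encodes the iron-binding lactoferrin, was 234, 61.9 and 124 FPKM in natural BM ETP and listed at 0 in MPP (adjusted p 2.76e-18 in limma). Camp (ENSMUSG00000038357), the precursor of the cathelicidin peptide, was 4526, 987 and 1660 FPKM in natural BM ETP and at most 1.28 FPKM in MPP, a log2 difference of 10.46 ± 0.73 (adjusted p 4.85e-18). Lyz2 (ENSMUSG00000069516), the lysozyme of neutrophils and macrophages, was 1209, 688 and 777 FPKM in natural BM ETP and 449, 375, 345 and 305 FPKM in MPP. The Lyz2 libraries did not overlap, but its log2 difference of 1.24 ± 0.62 did not pass (adjusted p 0.137); with only these 2 groups in the fit it did (adjusted p 0.000777).

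Of 6 primary granule companions, 4 rose in natural BM ETP against MPP and 2 were not called. Among these calls, Serpinb1a was lost under 5 alternatives, with a pseudocount of 0.1 furthest from the threshold (adjusted p 0.306 in limma), and Srgn, the proteoglycan that packs granule proteases, with quantile normalization (adjusted p 0.0800). Among 18 later granule genes, 15 rose and none fell, with a median log2 difference of 2.50 against -0.01 over all genes. Ngp, neutrophilic granule protein, averaged 1487 FPKM in natural BM ETP and 0.111 FPKM in MPP. Of 11 factors of granulocyte development, 5 rose and 3 fell: Irf8, which favours monocytes over neutrophils, averaged 229 FPKM in natural BM ETP and 1.82 FPKM in MPP. Of 14 myeloid receptors and surface proteins, 9 rose and none fell.

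Inside natural BM ETP, Ltf and Camp had the widest spread among the members; no test of spread was made. The highest library exceeded the lowest by 1.19 to 1.29 times for Mpo, Elane, Prtn3, Ctsg and Ms4a3, by 1.33 times for Cebpa, 1.71 for Cebpe and 1.76 for Lyz2, and by 3.79 times for Ltf and 4.59 times for Camp. Over the 12 of 18 later granule genes at 1 FPKM or more in every library, this ratio ran from 1.02 to 5.18 with a median of 2.43 and was above 2 for 8. Over all 6 primary granule companions it ran from 1.06 to 1.36. Hp, haptoglobin, was a later gene with a narrow spread, at 1.34 times. Ngp, Lcn2 (lipocalin 2) and S100a8, a calcium-binding protein of neutrophils, spread by 3.61, 3.65 and 3.68 times, and these 3, Ltf and Camp were highest in replicate 1 and lowest in replicate 2. The summed level of the 6 mature neutrophil markers ran between 4328 and 16025 FPKM over these 3 libraries; its part in the spread of Ltf and Camp was not tested.

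The group is labelled as early T progenitors, but its T lineage markers were low beside those of myeloid lineages. Together the 10 genes took 2.73% to 3.21% of all FPKM of a natural BM ETP library. The 6 mature neutrophil markers were all called higher than in MPP, with a median log2 difference of 2.38 against -0.01 over all genes. The sum of 10 monocyte and macrophage markers was 3505 to 4799 FPKM in natural BM ETP, mostly Ly6c2, and 2.39 to 24.0 FPKM in MPP, with 6 of the 10 called higher. The 8 dendritic markers summed to 535 to 926 FPKM in natural BM ETP and 232 to 319 FPKM in MPP, with 3 higher and 1 lower. Marker RNA of other lineages was present too. The 6 eosinophil, basophil and mast cell markers summed to 169 to 259 FPKM in natural BM ETP and 0.536 to 4.32 FPKM in MPP, with 5 higher. The 6 erythroid markers summed to 159 to 218 FPKM in natural BM ETP and 28.2 to 41.1 FPKM in MPP, with 5 higher and 1 lower. The 6 stem and progenitor markers summed to 310 to 375 FPKM in natural BM ETP and 682 to 980 FPKM in MPP. The 6 T lineage markers summed to 5.21 to 10.7 FPKM in natural BM ETP and 24.1 to 33.1 FPKM in MPP, with 1 higher and 1 lower. In natural thymic ETP they summed to 2006 to 2489 FPKM. Cd3e and Cd3g were listed at 0 in every natural BM ETP library. How the sort was gated is not stated in the labels. Whether cells of these types were in the libraries, and their part in the granule RNA, was not tested.

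In induced BM ETP none of this RNA reached the natural level. Mpo was 4.77 and 11.5 FPKM in the induced libraries, against 5265, 6443 and 5291 FPKM in the natural ones. Prtn3 was 5.79 and 8.74 FPKM in induced cells, against 8250, 7368 and 6922 FPKM in natural cells, and Ctsg 4.31 and 2.84 FPKM in induced cells, against 2734, 3200 and 2482 FPKM in natural cells. Elane was listed at 0 in both induced libraries. As a description, the log2 differences were -9.38 ± 0.54 for Mpo, -9.85 ± 0.41 for Prtn3 and -9.27 ± 0.27 for Ctsg.

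All 6 members open to a test were lower in induced than in natural BM ETP, where 31.1% of all genes were called and 16.8% were called lower. These 6 members had both induced libraries below every natural one, as did 28.4% of all genes. Cebpa was 0 and 1.58 FPKM in induced cells, against 32.0, 24.1 and 32.0 FPKM in natural cells, a log2 difference of -4.23 ± 0.26 (adjusted p 1.32e-20 in limma). Cebpe and Ms4a3 were listed at 0 in both induced libraries, with adjusted p-values of 3.76e-28 and 7.94e-40. All 6 calls held under all 11 alternatives.

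Lyz2 and the secondary granule genes were lower but not gone. Lyz2 was 74.0 and 54.1 FPKM in induced BM ETP, against 1209, 688 and 777 FPKM in natural BM ETP (-3.75 ± 0.74 on the log2 scale, adjusted p 4.05e-05). Camp was 196 and 41.3 FPKM in induced cells, against 4526, 987 and 1660 FPKM in natural cells (-4.42 ± 0.88, adjusted p 4.70e-05). Ltf was 8.23 and 0.317 FPKM in induced cells, against 234, 61.9 and 124 FPKM in natural cells (-5.14 ± 0.57, adjusted p 7.10e-11). The ratio of Ltf plus Camp to the 4 primary granule genes was 13.7 and 1.80 in induced BM ETP, against 0.197, 0.0437 and 0.0853 in natural BM ETP. The primary granule RNA in the natural ratio is the value named in the choice of genes, so this ratio is a description.

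The companion lists were mostly lower in induced cells as well. Of 6 primary granule companions 5 fell, of 18 later granule genes 12 fell and 2 rose, of 11 factors 6 fell and 3 rose, and of 14 receptors 10 fell. Spi1, the gene of PU.1, averaged 3.64 FPKM in induced and 102 FPKM in natural cells, and Csf3r, the receptor of the neutrophil growth factor G-CSF, was listed at 0 in induced cells and averaged 29.3 FPKM in natural cells. Against that direction, Retnlg, a resistin-like gene of mature neutrophils, was 68.0 and 107 FPKM in induced and 1.31, 0.472 and 1.83 FPKM in natural cells, a log2 difference of 5.35 ± 0.46 (adjusted p 7.62e-15 in limma).

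The mature neutrophil marker list was present in induced BM ETP, with none of its 6 genes at 0 in both libraries and a sum of 1256 to 1701 FPKM, beside 4328 to 16025 FPKM in natural BM ETP. S100a8 was 668 and 423 FPKM in induced and 7188, 1954 and 3231 FPKM in natural cells. The B lineage markers of induced BM ETP summed to 7641 to 8026 FPKM, against 68.7 to 86.9 FPKM in natural BM ETP. In pro/pre-B cells, the starting cells, they summed to 7805 to 8484 FPKM, which overlaps induced BM ETP. Cd3d, Cd3e, Cd3g and Bcl11b were at 0 in both induced libraries. The part of neutrophil RNA in the Camp, Ltf and Lyz2 of induced BM ETP was not tested.

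**Figure D3:**
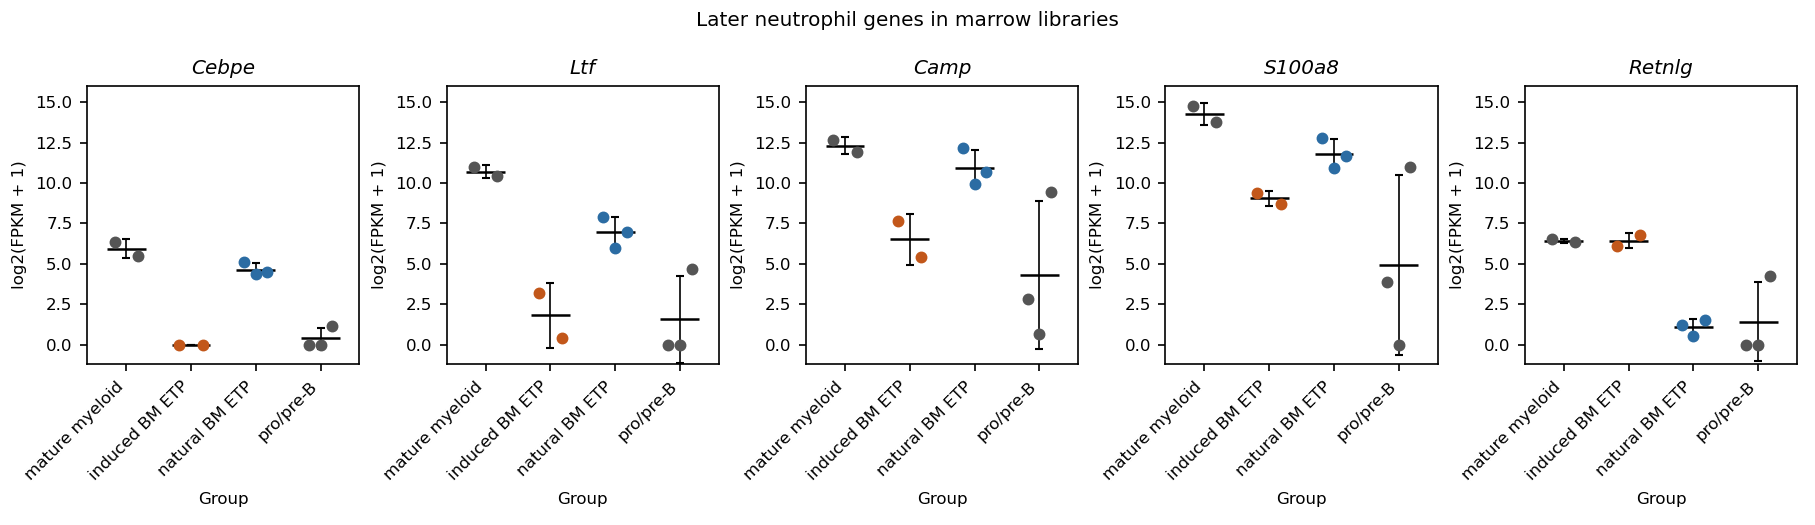
Cebpe, Ltf, Camp and, from the companion lists, S100a8 and Retnlg in mature myeloid cells (grey), induced BM ETP (orange), natural BM ETP (blue) and pro/pre-B cells (grey), as log2(FPKM + 1); points are libraries, the line is the mean and the bar 1 SD. Cebpe is at 0 in induced BM ETP while Camp and S100a8 are not, Retnlg overlaps between induced BM ETP and mature myeloid cells, and 1 pro/pre-B library stands above the other 2 in every panel.

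Induced BM ETP was next set against pro/pre-B cells, its cells of origin. Of the 10 members 3 rose and none fell, with 15.5% of all genes called and 8.10% called higher. Mpo and Ctsg were listed at 0 in all 3 pro/pre-B libraries (adjusted p 1.67e-05 and 3.15e-09 in limma). Prtn3 was 5.79 and 8.74 FPKM in induced BM ETP, against 1.25, 0 and 0 FPKM in pro/pre-B cells, a log2 difference of 2.63 ± 0.41 (adjusted p 1.75e-06). The Mpo levels of induced BM ETP lay within the range of the MPP libraries, and those of Prtn3 below it.

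In pro/pre-B cells most of the Camp and all of the Ltf came from 1 library, which was also the highest in Lyz2. Camp was 6.16, 0.554 and 708 FPKM, Ltf 0, 0 and 24.7 FPKM, and Lyz2 28.0, 27.3 and 109 FPKM in replicates 1, 2 and 4. Replicate 4 also held S100a8 at 2009 FPKM, beside 13.4 and 0 FPKM, and its mature neutrophil markers summed to 4525 FPKM. With it, the Camp log2 difference, induced BM ETP minus pro/pre-B, was 2.198 ± 0.877 and did not pass (adjusted p 0.0826 in limma), while the mean FPKM lay the other way, at 119 in induced BM ETP and 238 in pro/pre-B cells. Without it, the log2 difference was 4.78 (adjusted p 2.13e-12), and Ltf then passed as well (adjusted p 0.000218), so that 5 members were called. Camp also passed without induced replicate 2 (adjusted p 0.0410), and Cebpa without induced replicate 1 (adjusted p 0.000680).

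Mature myeloid cells carried the later wave. Lyz2 was 18458 and 19466 FPKM in mature myeloid cells, against 1209, 688 and 777 FPKM in natural BM ETP, and Ltf 2037 and 1365 FPKM, against 234, 61.9 and 124 FPKM. Cebpe was 80.2 and 44.4 FPKM in mature myeloid cells, against 33.5, 19.6 and 21.0 FPKM in natural BM ETP. These 3 were higher and Ms4a3 was lower, of the 6 members open to a test, with 44.7% of all genes called, 25.2% higher and 19.5% lower. The log2 differences were 4.45 ± 0.74 for Lyz2, 3.76 ± 0.57 for Ltf, 1.28 ± 0.20 for Cebpe and -3.14 ± 0.22 for Ms4a3, with adjusted p-values in limma of 8.80e-07, 1.40e-07, 1.58e-07 and 8.43e-19. The Cebpe call was lost with a pseudocount of 0.1 (adjusted p 0.0724).

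Camp and Cebpa did not pass. Camp was 6475 and 3882 FPKM in mature myeloid cells, overlapping natural BM ETP (adjusted p 0.224 in limma), and Cebpa was 34.9 and 38.0 FPKM, just above it (adjusted p 0.377). The primary granule genes were lower by description: Mpo was 203 and 133 FPKM, Elane 209 and 112 FPKM, Prtn3 236 and 144 FPKM and Ctsg 61.9 and 61.6 FPKM in mature myeloid cells. Their log2 differences from natural BM ETP lay between -5.51 and -5.09. Ltf plus Camp stood at 12.0 and 11.6 times the 4 primary genes in mature myeloid cells, against 0.197, 0.0437 and 0.0853 in natural BM ETP.

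Among the companion lists, 17 of 18 later granule genes rose in mature myeloid cells against natural BM ETP. Cebpb, a C/EBP factor of mature myeloid cells, averaged 41.3 FPKM in mature myeloid cells and 1.42 FPKM in natural BM ETP. Mature myeloid cells held markers of more than 1 kind. Their monocyte and macrophage markers summed to 4115 to 4627 FPKM, with all 10 genes detected. Their mature neutrophil markers summed to 33010 to 57754 FPKM. Lyz1, the near-identical neighbour of Lyz2, was 13.5 and 16.2 FPKM in the myeloid libraries and at most 0.336 FPKM in natural BM ETP. How reads shared by both genes were counted is not stated in the sources used here.

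The upstream sequence of Ltf is shown because it was the member with a C/EBP match before the start and because its RNA followed Cebpe most closely. It lies at chr9:111019042-111019291 of GRCm38.p6 on the plus strand, and capitals mark the match to TTGCNNAA on either strand, at position -75.
Ltf: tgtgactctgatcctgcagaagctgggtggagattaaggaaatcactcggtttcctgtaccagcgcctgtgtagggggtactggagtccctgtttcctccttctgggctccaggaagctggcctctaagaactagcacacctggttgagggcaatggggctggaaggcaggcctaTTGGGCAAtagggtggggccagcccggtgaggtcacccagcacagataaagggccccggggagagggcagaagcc

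Of the 9 members with a promoter in the RefSeq table, 2 held this match, Ltf and Ms4a3 (at position 41, after the start), and 10.8% of all promoters of 300 bases did. The other 7 held none in their window, which says nothing of sites elsewhere. The Ltf match overlapped no other motif searched.

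In thymic ETP, in contrast to BM ETP, Ctsg and Cebpa were higher in induced than in natural cells. Ctsg was 42.1, 53.5 and 61.6 FPKM in induced thymic ETP, against 7.91 and 2.13 FPKM in natural thymic ETP, without overlap. The log2 difference was 3.32 ± 0.27 (adjusted p 1.26e-14 in limma), and the call held under all 11 alternatives. Cebpa was 7.68, 4.39 and 1.93 FPKM in induced and 0.420 and 0.205 FPKM in natural thymic ETP, a log2 difference of 1.98 ± 0.26 (adjusted p 8.52e-08). The Cebpa call was lost with only these 2 groups in the fit (adjusted p 0.0740).

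In all, 4 of the 10 members were higher and none lower in induced thymic ETP, with 8.27% of all genes called and 4.49% called higher. The other 2, Elane and Prtn3, were at 0 in natural thymic ETP and rested on 1 induced library: Elane was 0.596, 0 and 6.96 FPKM and Prtn3 1.51, 0 and 12.2 FPKM in induced cells (adjusted p 0.0155 and 0.00428 in limma). Both calls were lost without induced replicate 3 (adjusted p 0.547 and 0.216), and without natural replicate 2 (adjusted p 0.114 and 0.0528). Elane was also lost without natural replicate 1 (adjusted p 0.105), and Prtn3 with only these 2 groups in the fit (adjusted p 0.341).

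Mpo was 0.0941, 13.6 and 28.0 FPKM in induced thymic ETP, around the 12.3 and 9.02 FPKM of natural thymic ETP, and did not pass (-0.58 ± 0.54, adjusted p 0.705). Lyz2 overlapped as well, at 57.6, 61.7 and 45.9 FPKM in induced and 59.6 and 72.4 FPKM in natural cells. Camp was at 0 in all 5 libraries. The 6 mature neutrophil markers summed to at most 1.76 FPKM in induced and 0.176 FPKM in natural thymic ETP, with S100a9, Ly6g, Retnlg and Mmp9 at 0 in both.

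Mcpt8, a basophil protease gene that neighbours Ctsg on chromosome 14, lay on the same side. It was 15.1, 30.3 and 38.8 FPKM in induced and 0 and 1.31 FPKM in natural thymic ETP. The 6 eosinophil, basophil and mast cell markers, which include Mcpt8, summed to 544 to 750 FPKM in induced and 457 to 461 FPKM in natural cells, most of it Cpa3, a mast cell carboxypeptidase. Epx, Prg2 and Prss34 were at 0 in every thymic ETP library. Markers of other lineages differed in the same comparison. The 8 dendritic markers summed to 34.8 to 61.5 FPKM in induced and 897 to 1531 FPKM in natural thymic ETP, with 5 called lower, and the 6 T lineage markers to 1189 to 1273 FPKM in induced and 2006 to 2489 FPKM in natural cells, with 3 called lower. Whether cells of these types differed in number, and their part in the Ctsg and Cebpa levels, was not tested. Gata2, a progenitor and mast cell factor, averaged 3.96 FPKM in induced and 0.0283 FPKM in natural cells (adjusted p 3.99e-06 in limma), and Irf8 0.301 FPKM in induced and 54.4 FPKM in natural cells (adjusted p 7.16e-11).

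**Figure D4:**
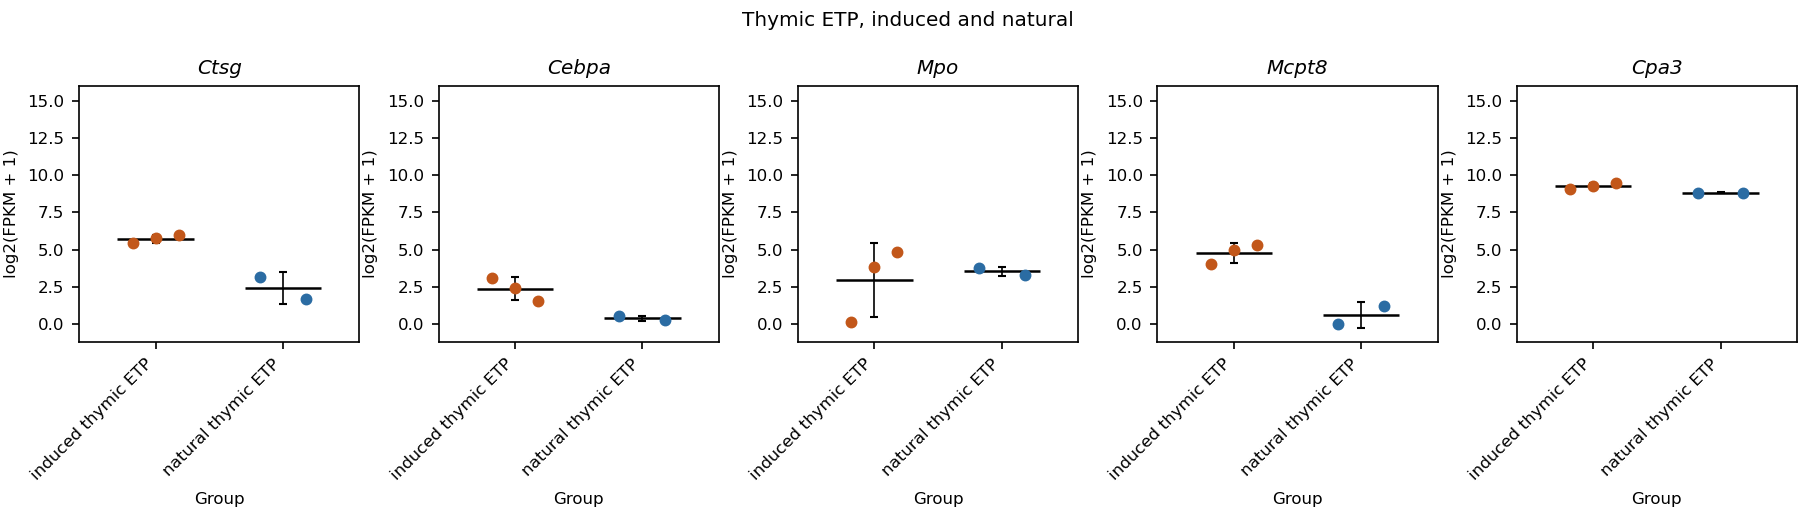
Ctsg, Cebpa, Mpo, Mcpt8 and Cpa3 in induced (orange) and natural (blue) thymic ETP, as log2(FPKM + 1); points are libraries, the line is the mean and the bar 1 SD. Ctsg, Cebpa and Mcpt8 lie higher in all 3 induced libraries, while Mpo overlaps.

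Of the companion lists in thymic ETP, 2 of 6 primary granule companions and 2 of 14 receptors rose. Of 18 later granule genes 1 fell, and of 11 factors 2 rose and 1 fell. Over all genes 8.27% were called and 4.49% called higher. Several of these calls were not stable. In limma, Cd63 was lost without induced replicate 3 (adjusted p 0.216) and Csf3r without induced replicate 2 (adjusted p 0.187). Adam8, the later granule gene that fell, was lost with a pseudocount of 0.1 (adjusted p 0.0613). Srgn averaged 2327 FPKM in induced and 1114 FPKM in natural thymic ETP (adjusted p 0.000485 in limma). Natural thymic ETP was itself below natural BM ETP in all 6 members open to a test, with 14.5% of all genes called and 8.64% called lower. Cebpa averaged 0.313 ± 0.152 FPKM in natural thymic ETP (n = 2) and 29.4 ± 4.56 FPKM in the BM group (SD, n = 3), a log2 difference of -4.52 ± 0.26 (adjusted p 1.03e-21). Mpo and Ctsg persisted at low levels in natural thymic ETP, at 12.3 and 9.02 FPKM and at 7.91 and 2.13 FPKM, while Prtn3 and Elane were at 0. The comparisons with natural BM ETP all share its 3 libraries.

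After ETP the members were close to silent, apart from Lyz2. In the 45 libraries from DN1 to SP, Elane, Ms4a3 and Cebpe were at 0 in all 45, Ctsg in 44, Mpo, Prtn3 and Camp in 42, Ltf in 40 and Cebpa in 32. The highest values there were 2.42 FPKM for Ctsg, 1.55 FPKM for Mpo, 1.43 FPKM for Camp and 1.29 FPKM for Cebpa. Lyz2 was at 0 in 21 of these libraries, 2 of them induced DN1 and the others from DN4 on. The companions were not all silent there. At CD4 SP, 1 of 6 primary granule companions was higher in induced cells and 2 were lower, with 26.4% of all genes called. Prss57 averaged 55.0 FPKM in induced and 0.0387 FPKM in natural CD4 SP (adjusted p 2.26e-13 in limma). Cst7 averaged 0.0620 FPKM in induced and 47.6 FPKM in natural CD4 SP (adjusted p 5.08e-14).

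Lyz2 was lower in induced than in natural DN1. It was 0, 0, 0.151 and 26.8 FPKM in induced DN1 and 70.2, 220 and 23.2 FPKM in natural DN1, so that 1 induced library lay within the natural range. The log2 difference was -4.93 ± 0.62 (adjusted p 5.09e-09 in limma), lost with only these 2 groups in the fit (adjusted p 0.0606). Cebpa was 0.175, 0.259, 0 and 0 FPKM in induced and 0.900, 0.396 and 1.29 FPKM in natural DN1, a log2 difference of -0.73 ± 0.22 (adjusted p 0.0123); it was lost with quantile normalization (adjusted p 0.0639) and without natural replicate 3 (adjusted p 0.117). These 2 members were the ones called, both lower, with 18.8% of all genes called and 8.93% called lower.

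Macrophage RNA varied with Lyz2 among the DN1 libraries. C1qb, a complement gene of macrophages, was 0, 0, 0 and 6.09 FPKM in induced DN1, where the library with C1qb was the one with 26.8 FPKM of Lyz2. It was 31.5, 43.8 and 3.94 FPKM in natural DN1, in the order of Lyz2, and its part in the Lyz2 difference was not tested. The 10 monocyte and macrophage markers summed to 52.3 to 86.7 FPKM in induced DN1, with Csf1r at 0, and to 2237 to 2898 FPKM in natural DN1, mostly Ly6c2, with F13a1 at 0. Without natural DN1 replicates 1 and 2 and natural DN2 replicate 2, the Lyz2 difference was -3.34. That fit left 1 natural DN1 library, with 3.94 FPKM of C1qb and 23.2 FPKM of Lyz2. The induced library with 26.8 FPKM of Lyz2 and 6.09 FPKM of C1qb was kept. Of the companion lists, 6 of 14 receptors, 3 of 18 later granule genes and 4 of 11 factors were lower in induced DN1, and 2 factors and 1 of 6 primary granule companions were higher. Without those natural libraries, the log2 difference of the later granule gene Anxa1 was -2.58. The call of the later granule gene Mmp25 was lost without natural DN1 replicate 2 (adjusted p 0.0588 in limma).

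At DN2 and DN3 Lyz2 was present in every library, also where C1qb was not. It was 30.9 and 32.7 FPKM in induced and 29.4, 18.3 and 20.01 FPKM in natural DN2, and 18.1, 16.7 and 31.7 FPKM in induced and 14.5 and 19.3 FPKM in natural DN3. C1qb was at 0 in both induced DN2, all 3 induced DN3 and both natural DN3 libraries. No member was called at DN2, where 1.5% of all genes were, at DN3 (3.54%), DN4 (0.741%), DP (10.4%) or CD4 SP (26.4%). The Lyz2 difference was 0.50 ± 0.74 on the log2 scale at DN2 (adjusted p 1.00 in limma) and 0.33 ± 0.74 at DN3 (adjusted p 1.00).

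From DN4 on Lyz2 was at 0 or below 1 FPKM in every thymic library but 2 of natural CD8 SP. Induced CD8 SP were at 0 in all 4 libraries and natural CD8 SP at 19.0, 0.199 and 1.92 FPKM. This was the 1 member called there (adjusted p 0.0208 in limma, with 10.6% of all genes called and 5.01% called lower), and it was lost without natural replicate 1 (adjusted p 0.512) and with only these 2 groups in the fit (adjusted p 0.0774). Beside it, the monocyte and macrophage markers summed to 6.87 to 11.5 FPKM in induced and 266 to 368 FPKM in natural CD8 SP, with 3 of 10 called lower, and the dendritic markers to 51.3 to 75.7 FPKM in induced and 119 to 391 FPKM in natural cells, with 4 of 8 called lower. Adgre1, C1qa, C1qb and C1qc were at 0 in both groups, and the part of myeloid RNA in the Lyz2 difference was not tested. Mature T cells held at most 0.973 FPKM of Lyz2 and mature B cells at most 0.740 FPKM.

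**Figure D5:**
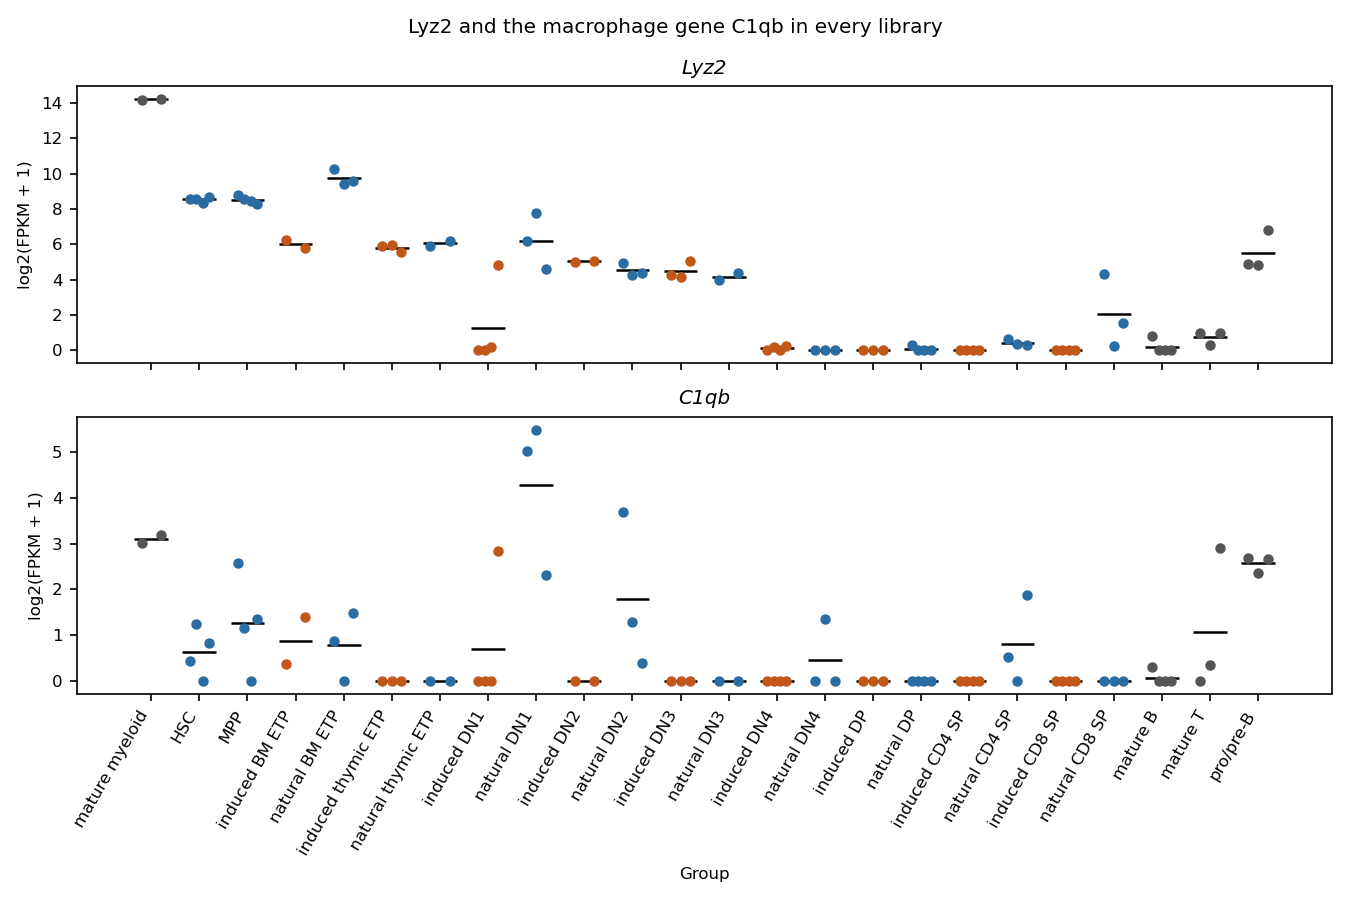
Lyz2 (top) and C1qb (bottom) in every library of the 24 groups, as log2(FPKM + 1), with induced groups in orange, natural progenitors and thymocytes in blue, and mature and pro/pre-B cells in grey; points are libraries and lines group means. Group means of Lyz2 lie near 4 to 6 on this scale from thymic ETP to DN3 outside induced DN1, also where C1qb is at 0, and close to 0 at DN4.

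Ranked over the 24 groups, natural BM ETP was highest for Mpo, Elane, Prtn3, Ctsg and Ms4a3, and mature myeloid cells for Cebpa, Cebpe, Lyz2, Ltf and Camp. Camp alone overlapped between those top groups. For Prtn3, MPP and HSC followed natural BM ETP, overlapped each other and lay above mature myeloid cells, at 771, 499 and 190 FPKM. In Mpo the groups ranked 3 to 6, induced and natural thymic ETP, induced BM ETP and MPP, averaged 13.9, 10.7, 8.14 and 8.13 FPKM, each overlapping the next.

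Among the members, group means of log2(FPKM + 1) over the 24 groups were most alike for Elane and Ms4a3 (Pearson r 0.996), followed by Cebpe and Ltf (0.982), and least alike for Elane and Lyz2 (0.598). Prtn3 and Ctsg reached 0.653. These groups share long runs at or near 0, and no p is given. Outside the members, the genes most like the mean of Mpo, Elane, Prtn3 and Ctsg were Slc22a4 (0.945), Fcer1a (0.936), Anxa3 (0.931), Dmkn (0.915) and Chst13 (0.914). Those most like the mean of Ltf and Camp were Lcn2 (0.999), Ngp (0.998), Chil3 (0.995), Trem3 and Ifitm6 (0.985 each).

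For single members, Cebpa was most like Ccl9 (0.971), Hk3 (0.969), Cds1 (0.923), Ltb4r1 (0.914) and Tbc1d2 (0.908), and Cebpe most like Lrg1 (0.999), Fcnb (0.998), Clec4b2 (0.997), Hp (0.996) and Cldn15 (0.995). Lyz2 was less matched, with Mlkl and Csf2ra (0.905 each), St6galnac6 (0.902), Pygl (0.898) and Alox5ap (0.894). Ms4a3 was closest to Fcer1a and Mogat2 (0.987 each), Slc22a4 (0.974), Dmkn (0.959) and Cldn15 (0.954).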

How the data were processed

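The submitters' processing notes name the build NCBIM37 and the tools bcl2fastq, TopHat, Cuffnorm and Cufflinks (2.2.1). The deposited values are FPKM by Ensembl gene and library; the annotation and Cuffnorm's library normalization are not given in the sources used here. Per the labels, RNA of 1000 sorted cells was amplified and tagmented with Nextera XT. Symbols came from GENCODE vM21 on GRCm38 (32916 of 37980 IDs, 86.7%), and promoters from RefSeq on GRCm38.p6 (9 of 10 members).

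Groups were taken from the labels. Values were tested as log2(FPKM + 1), so that fold changes of low genes are understated. A single limma 3.58.1 model (in R 4.3.3, with trended, robust empirical Bayes) with 1 mean per group was fitted to 75 libraries and 17416 genes, with 51 residual degrees of freedom, two-sided tests and Benjamini-Hochberg adjustment over genes in each of 14 comparisons. The script was tested on simulated data. Read counts were not used. Depth came from the steps between low FPKM values, 76.1% to 94.2% of which lay within 0.2 of whole fragments, and was 0.987 to 11.2 fragments per FPKM and kilobase.

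Members, lists, comparisons and alternatives were chosen with earlier results of these data known. All 10 members are named, and from each companion list up to 4 genes per comparison that passed and did not overlap, by size of change; Mcpt8, Cpa3, C1qb, S100a8 and the other marker genes were named as markers. Likeness was Pearson's correlation over group means. Alternatives were a pseudocount of 0.1, no filter, equal totals, quantile normalization, only the groups of a comparison, a replicate block, and each library left out. At DN1 and DN2, natural DN1 replicates 1 and 2 and natural DN2 replicate 2 were also left out together. Replicate numbers were not taken to pair the libraries, which the labels do not settle: correlations of same-numbered libraries ran from -0.0401 to 0.131. Python 3.11.15 was used with matplotlib 3.10.9, scipy 1.17.1, pandas 2.3.3 and numpy 2.4.6.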

Additional observations from a re-analysis of the deposited data

Results flagged for a closer look

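Lyz2 in induced DN1 replicate 4, at 26.8 FPKM, stood apart from the other 3 libraries of its group, which lay at 0, 0 and 0.151 FPKM. It was the 1 outlier by Dixon's criterion among the 7 sets of 4 libraries looked at. Chance gives an outlier in about 1 in 20 single sets, so 1 among 7 can arise by chance.

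The difference between induced and natural cells had opposite signs in BM ETP and thymic ETP for Ctsg, with every library on the same side: -9.27 on the log2 scale in BM ETP and 3.32 in thymic ETP, a gap of -12.6 that was not tested because Ctsg was chosen for its natural BM ETP level. For Cebpa the values were -4.23 and 1.98, a gap of -6.21. Cebpa was picked for its opposite signs in these same data, so no p is given for the gap. Its thymic ETP call was lost with only induced and natural thymic ETP in the fit (adjusted p 0.0740 in limma). Lyz2 was lower in induced cells in BM ETP (-3.75) and in CD8 SP, and higher in DN2 (0.50), where the difference did not pass. At DN1, where the libraries overlapped, Lyz2 was also lower (-4.93). The gap to DN2 was -4.26 for BM ETP and -2.55 for CD8 SP, and neither was tested. Induced CD8 SP was at 0 in all 4 libraries. Its difference of -2.04 and the gap of -2.55 therefore rest on the pseudocount and are not folds. The CD8 SP call was lost without natural replicate 1 (adjusted p 0.512 in limma).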

How the results depend on the processing

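Of 33 member calls, 26 held under every alternative run, 7 were lost under at least 1 and none reversed. Fitted on the compared groups alone, the members called numbered 1 at thymic ETP, 0 at DN1 and 0 at CD8 SP. Few residual degrees of freedom are left in such a fit. Calls over all genes rose in it at DN1 (3676 against 3280) and at CD8 SP (2340 against 1852). Cebpa at DN1 and Elane at thymic ETP did not pass the filter of that fit and were not tested in it. A pseudocount of 0.1 gave 2 members at CD8 SP, and quantile normalization 1 at DN1. Leaving out 1 library gave 0 to 1 at CD8 SP (0 without natural replicate 1), 1 to 2 at DN1, 2 to 5 at thymic ETP and 3 to 5 for induced BM ETP against pro/pre-B cells.

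The replicate block moved no count of members in 13 comparisons, but no comparison had every same-numbered pair correlated above 0.1, so the numbers were not taken to pair libraries. As a hint from the data, every library was most like its own number in induced BM ETP against pro/pre-B (4 of 4) and at DN2 (4 of 4), as were 5 of 6 at DP, 3 of 4 at thymic ETP and DN3, 4 of 8 in MPP and HSC, 3 of 6 at DN4, 2 of 6 at CD4 SP and 1 of 6 at CD8 SP, and none in the other 4 comparisons. In a group of 2 libraries the deviations from the mean mirror each other, so the matches counted with such a group are not independent. No paired analysis was possible for mature myeloid cells because their labels share no number with natural BM ETP.

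Counts over all genes moved more. Fitted on the compared groups alone they were 244 against 1804 at DP, 54 against 616 at DN3, 37 against 262 at DN2, 708 against 129 at DN4, 2954 against 4599 at CD4 SP and 1461 against 2698 for induced BM ETP against pro/pre-B cells. Leaving out libraries gave 77 at DN4, 771 against 1441 at thymic ETP, 1680 against 2523 for thymic against BM ETP, and 1505 against 3280 at DN1 without 3 natural libraries.

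Of the 5 genes most like each profile by Pearson, 0 for primary granules, 1 for secondary granules, 2 for Cebpa, 0 for Cebpe, 4 for Lyz2 and 0 for Ms4a3 were among the top 20 by Spearman, and all 5 of each with a pseudocount of 0.1. Depth limits the low values: a member below about 1 fragment is listed at 0, and the mature myeloid libraries, at 0.987 and 0.990 fragments per FPKM and kilobase, are the least precise.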
